A study of Mus musculus with 54 samples.

Results

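The main histone cluster of the mouse lies on chromosome 13 and holds most of the histone genes that are switched on in S phase. Its members were chosen by name and place: genes whose current or older symbol marks a histone of the cluster, starting between 21.5 and 24.0 Mb of the mm10 genome. The rule found 56 of the 49993 annotated genes, 55 by their current symbol and H4bc24 by its older name Hist1h2br. Of these, 36 overlap at least 1 of the 50 kb windows of the replication timing table, in 8 windows, out of 43941 autosomal windows in all. The other 20 lie wholly in windows not analysed here.

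The values come from allele-specific Repli-Seq, which sorts BrdU-labelled cells by DNA content into an early and a late part of S phase and sequences the new DNA of each. In F1 hybrids, reads can be assigned to a parental strain. Neural precursor cells (NPCs) were made from the lines F121-9 (129/Cas, female, 1 profile) and Cas129 (Cas/129, female, 2 profiles) and taken at day 11. Mouse embryonic fibroblasts (MEFs) came from 4 Cas/129 embryos, with 2 profiles from each; by label, embryos 1 and 2 were female, embryos 3 and 4 male. Embryonic stem cells (ESCs) came from 5 lines: F121 (1 profile), F121-6 (4 profiles), F121-9 (4 profiles) and F123 (2 profiles), all 129/Cas, and Cas129 (2 profiles, Cas/129), with F123 labelled male and the others female. F121-6 and F121-9 were grown both in 2i, a feeder-free medium with MEK and GSK3 inhibitors and LIF, and on inactivated fibroblast feeders, and the other ESC lines in 2i. Extraembryonic endoderm (XEN) cells (C57B6/Cas, female, 2 profiles of 1 line) and V6.5 ESCs (129 and C57B6, male, 1 profile) have other parents and were described without a test; below, ESC lines are the 5 with 129 and Cas alleles unless V6.5 is named. Each line is 1 genotype kept in culture, and each NPC group shares its line with an ESC group.

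A timing value is the log ratio of early to late signal, read as log2, averaged over both alleles; higher means earlier replication. The allelic difference is 129 minus Cas, so a positive value means that the 129 copy replicated earlier. Each line or embryo counted as 1 unit, except in the comparison of culture media, where the unit was the profile, and ± gives the SD over lines or embryos. Calls rest on limma, fitted to all 43941 autosomal windows: the adjusted p (Benjamini-Hochberg) had to be below 0.05 and the difference 1 or more for timing between cell types, or 0.5 or more in other comparisons. These p-values measure the spread between the lines and embryos at hand or, for culture, between profiles of 2 lines, which may be technical. Between cell types that spread is pooled over ESC lines, NPC lines and MEF embryos, so the 2 NPC lines add little to it. The read depth is unknown. Adjacent windows correlated at 0.980 to 0.996 within a profile, so the 8 windows are not independent, and all genes of a window share its value. As a check of the labels, 11 of 12 pluripotency genes were measured and their median timing difference was -1.44 in NPCs minus ESCs and -1.67 in MEFs minus ESCs, while the 12 fibroblast genes had a median of 2.65 in MEFs minus ESCs. The 10 neural genes had a median of 0.79 in NPCs minus ESCs and 0.67 in MEFs minus ESCs. The fibroblast genes had 0.83 in NPCs minus ESCs, so the neural list does not single out the NPCs. The 9 measured endoderm genes had a median timing of 2.38 in XEN cells, 2.02 in MEFs and, on columns of another level, 0.27 in ESCs. Their median percentiles were 80.1 in XEN cells, 75.5 in MEFs, 62.8 in NPCs and 60.0 in ESCs. Much of the gap between XEN cells and ESCs was thus also seen in MEFs. These are timing values, not expression.

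Histones package DNA into nucleosomes: H2A, H2B, H3 and H4 form the core around which DNA is wrapped, and the linker histone H1 binds where DNA enters and leaves it. The genes of this cluster are replication-dependent. They have no introns as a rule, their transcripts end in a stem-loop in place of a poly(A) tail, and their output rises as DNA is copied, when new chromatin must be assembled. In the nucleus they gather at the histone locus body, organised by Npat, and Slbp binds the stem-loop of their transcripts.

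The 56 genes fell into 2 stretches that lie 1.49 Mb apart. The proximal stretch held 24 genes (chr13:21715711-22043658) and the distal stretch 32 (chr13:23531044-23934913). The linker class H1 had 6 genes, of which 5 were measured and 5 lie in the distal stretch. H2A and H2B had 15 each, with 10 of each measured. H3 had 9 genes with 5 measured, and H4 had 11 with 6 measured. H2ac14 and H2ac5-ps are annotated as pseudogenes. Each stretch had 18 measured genes, in 3 proximal and 5 distal windows. The interval between them holds 75 genes and pseudogenes of the Vmn1r family of vomeronasal receptors. Only 52% of the windows within the bounds were in the table, against 89.3% of the autosomal grid, and a gap of 750 kb (chr13:22850001-23600000) covers 14 of the unmeasured histone genes.

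The promoters of the cluster were searched for letters they share. RefSeq promoters (GRCm38.p6) of 51 of the 56 genes were matched, 52 in all since H2bc6 has 2. The 3 motifs below were searched on both strands of the 300 bases from 250 before to 50 after each start: CCAAT, the letters of the CCAAT box, then TATAAA, those of a core promoter element, and then ATTTGCAT, the octamer bound by Oct factors, with no overlap between matches of different motifs in the members. CCAAT was found in 84.6% of the members' promoters, against 37.4% of all 32851 promoters. TATAAA was found in 59.6% of the members' promoters and 13.6% of all promoters, and the octamer in 21.2% and 1.74%. The octamer was found in 5 of 13 H2A and 6 of 15 H2B promoters, and in 0 of the 6 H1, 7 H3 and 11 H4 promoters. CCAAT was in all promoters of H1, H2A, H2B and H3 genes that were matched and in 3 of 11 of H4 genes. These promoters are not independent, because 10 neighbouring H2A and H2B pairs start 164 to 281 bases apart on opposite strands and share sequence. A match is a description of the letters and not a mapped site.

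The 250 bases before the start are shown for 5 genes of windows that the timing results turn on: H2bc11 (chr13:22042948-22043197, plus strand) and H4c9 (chr13:22041363-22041612, minus strand) of the proximal stretch, and H1f4 (chr13:23622559-23622808, minus strand), H1f1 (chr13:23763418-23763667, plus strand) and H2bc1 (chr13:23934157-23934406, minus strand) of the distal stretch. Sequences read 5′ to 3′ along the gene, and capitals mark the matches to the motifs named above on either strand.
H2bc11: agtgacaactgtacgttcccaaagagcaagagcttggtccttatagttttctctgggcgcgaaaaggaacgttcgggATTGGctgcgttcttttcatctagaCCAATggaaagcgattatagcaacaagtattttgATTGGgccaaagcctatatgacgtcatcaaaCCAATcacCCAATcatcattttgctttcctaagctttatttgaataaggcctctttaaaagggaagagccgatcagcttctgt
H4c9: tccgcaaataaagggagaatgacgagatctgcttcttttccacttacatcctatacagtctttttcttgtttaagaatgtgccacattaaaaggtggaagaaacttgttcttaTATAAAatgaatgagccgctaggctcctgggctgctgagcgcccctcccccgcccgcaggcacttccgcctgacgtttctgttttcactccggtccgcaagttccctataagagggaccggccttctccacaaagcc
H1f4: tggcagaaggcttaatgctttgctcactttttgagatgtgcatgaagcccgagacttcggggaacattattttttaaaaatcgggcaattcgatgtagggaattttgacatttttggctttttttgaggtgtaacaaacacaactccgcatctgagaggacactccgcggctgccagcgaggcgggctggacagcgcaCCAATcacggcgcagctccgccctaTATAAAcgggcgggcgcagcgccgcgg
H1f1: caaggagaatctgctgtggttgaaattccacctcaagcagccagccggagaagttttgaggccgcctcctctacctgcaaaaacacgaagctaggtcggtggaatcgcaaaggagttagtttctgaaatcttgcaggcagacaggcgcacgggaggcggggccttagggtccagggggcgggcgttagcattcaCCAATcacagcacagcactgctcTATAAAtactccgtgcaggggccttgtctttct
H2bc1: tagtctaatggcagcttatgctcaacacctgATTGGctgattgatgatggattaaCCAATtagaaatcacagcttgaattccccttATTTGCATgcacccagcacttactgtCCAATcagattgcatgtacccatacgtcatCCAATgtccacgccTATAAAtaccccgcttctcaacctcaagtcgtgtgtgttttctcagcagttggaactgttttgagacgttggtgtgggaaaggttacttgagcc
H2bc11 carries 5 CCAAT matches and no TATAAA, and H4c9 carries 1 TATAAA and no CCAAT. H1f4 and H1f1 each carry 1 CCAAT and 1 TATAAA match. H2bc1 carries 4 CCAAT, 1 TATAAA and 1 octamer match. Whether motifs relate to timing was not tested.

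In ESCs the cluster did not replicate as a block. The earliest of its windows was the last of the proximal stretch, with H2ac12, H2bc12, H4c9, H2ac11 and H2bc11 (chr13:22000001-22050000), at 1.67 ± 0.37 (SD, n = 5 lines), on average at percentile 76.5 of the autosomal windows of a profile. The latest was the window of H2ac4, H3c2, H4c2, H4c1, H3c1 and H1f1 in the distal stretch (chr13:23750001-23800000), at -1.52 ± 0.37 (n = 5) and percentile 40.8. In all 5 ESC lines the last window of the proximal stretch was earlier than its first, by 1.28 to 2.08. The rise was not steady, since a window without histone genes between them (chr13:21900001-21950000) averaged 2.03. In the distal stretch the last window was later than the first in all 5 lines, with a mean difference of -1.31 ± 0.49. That fall was not steady either: the last window, at -1.13 ± 0.41, was on average earlier than the H2ac4 to H1f1 window. Only Cas129 went the other way, at -1.53 in the last window against -1.33. The range over the 8 windows was 2.63 to 4.26 within an ESC line.

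In NPCs and MEFs the distal stretch ran the other way. Its last window was earlier than its first by 1.73 ± 0.30 in NPCs (n = 2 lines) and by 1.82 ± 0.23 in MEFs (n = 4 embryos), positive in every line and embryo of both, whereas it was negative in all 5 of the 129 and Cas ESC lines. In the proximal stretch the last window was the earlier in all groups, by 1.70 ± 0.41 in NPCs, 1.11 ± 0.11 in MEFs and 1.72 ± 0.31 in ESCs. These slopes were noticed in the data and carry no test. The plot of timing along the cluster shows both stretches.

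**Figure D1:**
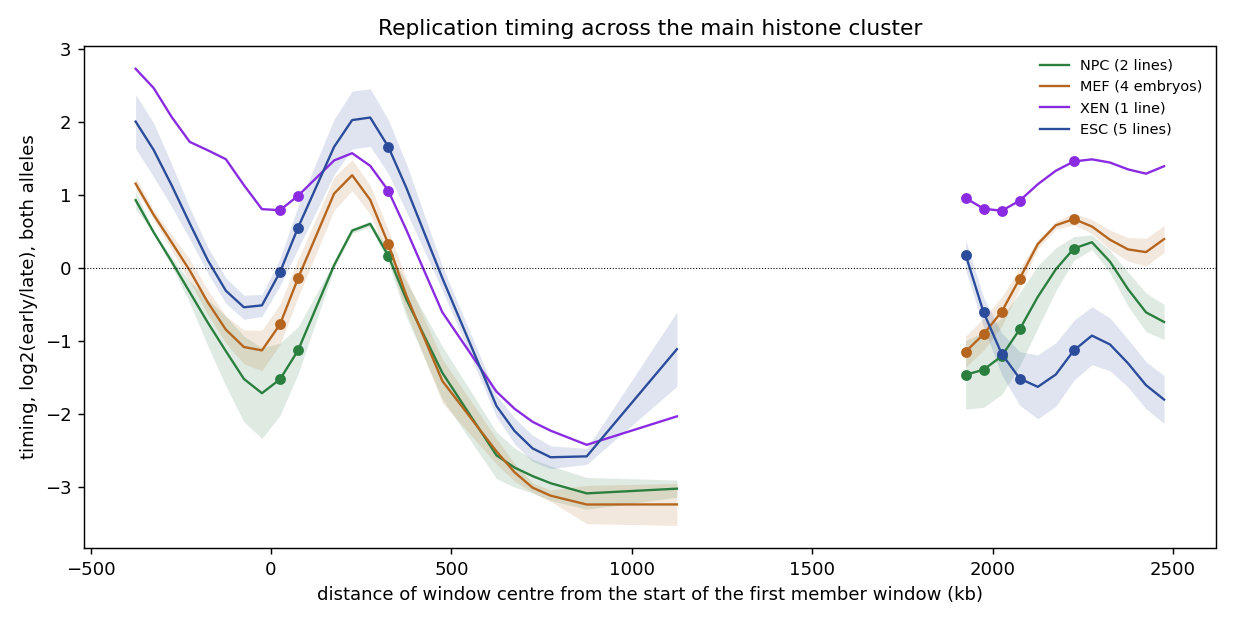
Mean timing, log2(early/late), of both alleles (vertical axis) against distance in kb from the start of the first member window (horizontal axis) in NPCs, MEFs, XEN cells and ESCs; shading is ± 1 SD between lines or embryos, filled circles are the 8 windows with histone genes, and lines are broken at the longest gap while shorter gaps are bridged. From the first to the last circle of the distal stretch the NPC and MEF lines climb, while the last ESC circle lies below the first.

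The comparison of NPCs with ESCs asks how timing changes as stem cells become neural precursors. It called 5 of the 8 windows, 4 lower (later) and 1 higher (earlier) in NPCs; of all autosomal windows, 16.1% were called lower and 16.4% higher. The 4 later windows hold 20 of the 36 measured histone genes: the whole measured proximal stretch and the window of H1f4 and H2bc6. By class they hold 2 of 5 H1, 6 of 10 H2A, 7 of 10 H2B, 2 of 5 H3 and 3 of 6 H4 genes. The earlier window holds H2bc1 and H2ac1, the H2B and H2A genes known for their use in male germ cells. The median difference over the 8 windows was -1.13, against 0.03 over all windows.

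The window with the most proximal members (chr13:21750001-21800000) holds H4c12, H2ac15, H2bc15, the linker gene H1f5, H3c11, H2ac22 and H2bc22. Its timing was -0.90 in F121-9 NPCs and -1.36 in Cas129 NPCs, against 0.25 in F121 ESCs, 0.91 in F121-6 ESCs, 0.41 in F121-9 ESCs, 0.82 in F123 ESCs and 0.39 in Cas129 ESCs. Both NPC lines lay below all 5 ESC lines, with a difference of -1.68 (SE 0.23, adjusted p = 1.86e-05). The percentile was lower by 18.0 points, a mean of 44.8 in NPCs and 62.8 in ESCs.

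The last proximal window, with H4c9 and the divergent pairs H2ac12 and H2bc12, and H2ac11 and H2bc11, was at 0.23 in F121-9 NPCs and 0.11 in Cas129 NPCs, against 1.45 in F121 ESCs, 2.19 in F121-6 ESCs, 1.68 in F121-9 ESCs, 1.80 in F123 ESCs and 1.21 in Cas129 ESCs. The groups did not overlap, and the difference was -1.50 (SE 0.24, adjusted p = 6.5e-05). The first proximal window, with H2bc13, H2ac13, H3c10, H2ac14, H2bc14 and H4c11, was at -1.53 ± 0.50 in NPCs (n = 2) and -0.06 ± 0.19 in ESCs (n = 5), a difference of -1.47 (SE 0.23, adjusted p = 6.18e-05).

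At the start of the distal stretch, the window of H1f4 (chr13:23600001-23650000) was at -1.13 in F121-9 NPCs and -1.80 in Cas129 NPCs, against -0.09 in F121 ESCs, 0.26 in F121-6 ESCs, 0.02 in F121-9 ESCs, 0.40 in F123 ESCs and 0.31 in Cas129 ESCs. H1f4 encodes a linker histone used in somatic cells, and H2bc6 reaches the window with 1 of its 2 annotated starts. Again the groups did not overlap, and the difference was -1.65 (SE 0.22, adjusted p = 1.4e-05).

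Along the distal stretch the difference shrank and changed sign. It was -0.78 (SE 0.23, adjusted p = 0.00879) in the window of H2ac6, H2bc4, H4c3 and the testis linker gene H1f6, below the size asked for. It was -0.03 (SE 0.24, adjusted p = 0.925) in the window of H1f2, H3c3, H2ac5-ps and H2bc3, where the groups overlapped. In the window of H2ac4 to H1f1 it was 0.68 (SE 0.25, adjusted p = 0.0353), also below the size and with overlapping groups.

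The last distal window (chr13:23900001-23950000), with H2bc1 and H2ac1, was at 0.38 in F121-9 NPCs and 0.15 in Cas129 NPCs, against -0.79 in F121 ESCs, -1.51 in F121-6 ESCs, -1.18 in F121-9 ESCs, -0.63 in F123 ESCs and -1.53 in Cas129 ESCs. Both NPC lines lay above the 5 ESC lines of the comparison, with a difference of 1.40 (SE 0.24, adjusted p = 0.000148), but V6.5 ESCs, at 0.47, lay above both NPC lines. This window was thus earlier in NPCs while the other called windows were later.

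Within a line the calls had the same direction: NPC minus ESC values of F121-9 and Cas129 were -0.93 and -1.81 in the first proximal window, -1.31 and -1.75 in the second, -1.45 and -1.10 in the last, -1.16 and -2.11 in the H1f4 window, and 1.57 and 1.68 in the H2bc1 window. The lines went apart in the H1f2 window, at 0.52 in F121-9 and -0.70 in Cas129. The NPC values rest on 3 profiles, and the first Cas129 NPC profile was lower than its repeat in each of the 8 windows, for example -2.11 against -0.61 in the H1f5 window. With that profile set aside the same count of 5 windows was called, and the 5 differences were -1.17, -1.31, -1.10, -1.30 and 1.60 in genomic order.

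**Figure D2:**
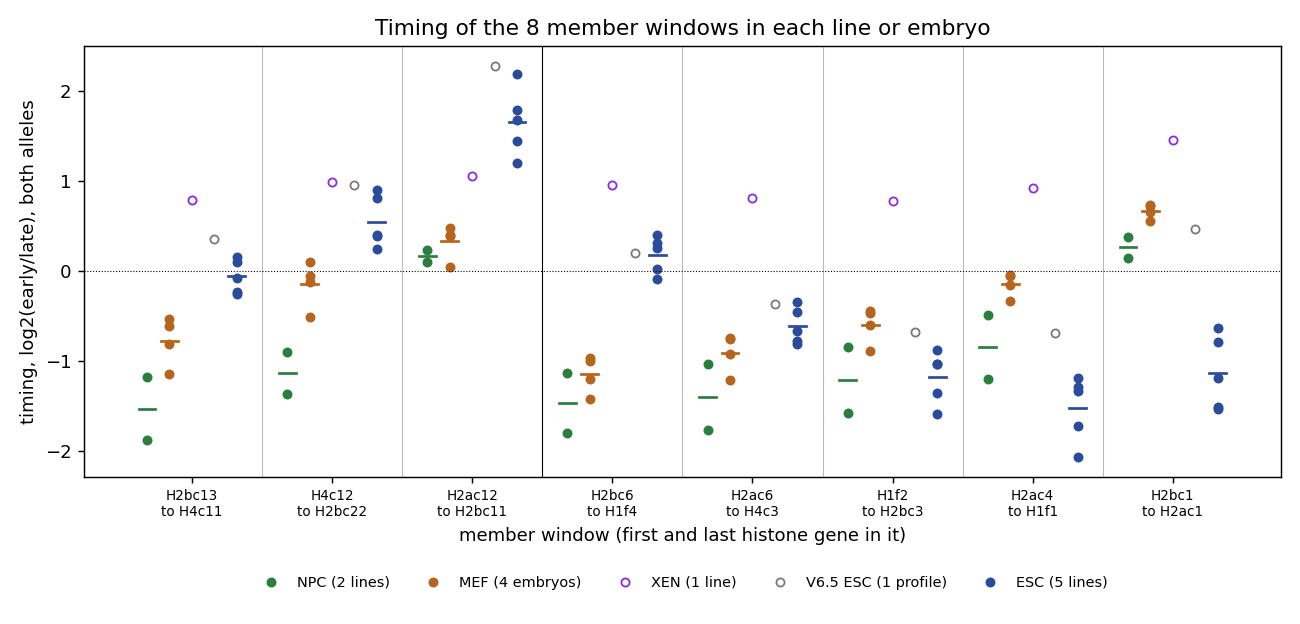
Timing, log2(early/late), of both alleles (vertical axis) in each of the 8 member windows (horizontal axis, named by the first and last histone gene), with 1 point per line or embryo, bars for group means and the distal stretch right of the black line; XEN cells and V6.5 ESCs are open circles. NPC and MEF points lie below all ESC points in the proximal stretch and in the H2bc6 to H1f4 window. In the H2bc1 to H2ac1 window they lie above the 5 ESC lines with 129 and Cas alleles, and V6.5 ESCs, at 0.47, lie between MEFs and NPCs.

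MEFs, taken from embryos, were compared with ESCs in the same way. Their columns lie on another level than those of ESCs and NPCs: the median difference of all windows was 0.38 for MEFs minus ESCs and 0.35 for MEFs minus NPCs, and the values below are to be read against it. Of the 8 windows, 4 were called, 2 lower and 2 higher in MEFs, against 13.7% and 30.3% of all windows. The 2 later windows, the last proximal one and that of H1f4, hold 7 measured genes, and the 2 earlier ones, the last of the distal stretch, hold 8. The median difference over the 8 windows was -0.50.

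The last proximal window was at 0.40, 0.48, 0.40 and 0.05 in MEF embryos 1 to 4, below the lowest ESC line at 1.21, with a difference of -1.33 (SE 0.19, adjusted p = 1.04e-05). The H1f4 window was at -1.20, -0.99, -0.97 and -1.43 in MEF embryos 1 to 4, all below the lowest ESC line at -0.09, with a difference of -1.33 (SE 0.18, adjusted p = 5.53e-06). Relative to the median of all windows both differences were -1.71. The first and second proximal windows were lower by less than the size asked for, at -0.72 (SE 0.19, adjusted p = 0.00261) and -0.70 (SE 0.19, adjusted p = 0.00359), with no overlap between MEFs and ESCs. After centring each column on its median they were called, at -1.36 and -1.34.

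The H2bc1 window was earlier in MEFs, at 0.56, 0.66, 0.73 and 0.74 in MEF embryos 1 to 4, above the highest ESC line at -0.63, with a difference of 1.80 (SE 0.19, adjusted p = 4.21e-07), or 1.42 relative to the median of all windows. The window with the most distal members, those from H2ac4 to H1f1, was at -0.15, -0.04, -0.05 and -0.33 in MEF embryos 1 to 4, against -1.18 in F121 ESCs, -2.07 in F121-6 ESCs, -1.72 in F121-9 ESCs, -1.28 in F123 ESCs and -1.33 in Cas129 ESCs. Its difference was 1.37 (SE 0.20, adjusted p = 1.59e-05), all MEFs being above all ESCs, but it was 0.73 with median centring and 0.71 with quantile normalization, under the size asked for. On the percentile scale the H2bc1 window was higher by 12.8 points in MEFs and the H2ac4 to H1f1 window by 7.9. In the H1f2 window the deposited scale gave 0.58 (SE 0.19, adjusted p = 0.0141), but the percentile was lower by 1.1 points in MEFs, so its direction depends on the scale.

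**Figure D3:**
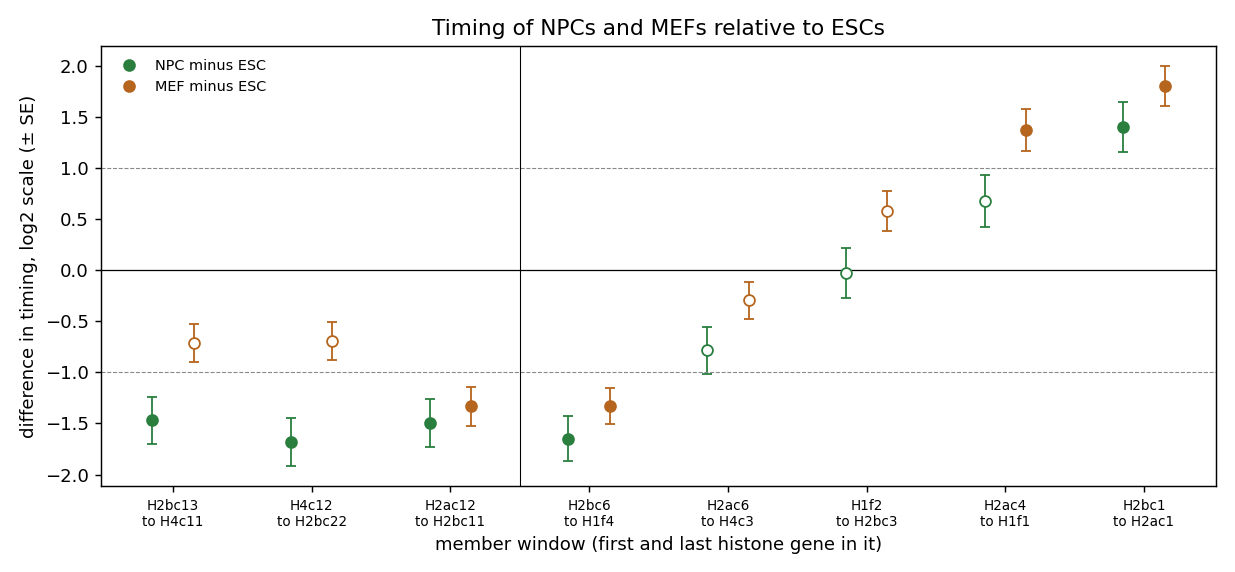
Difference in timing (vertical axis, log2 scale, ± SE from limma) of NPCs minus ESCs and of MEFs minus ESCs in the 8 member windows (horizontal axis); filled points passed both the adjusted p and the size of 1, marked by dashed lines, and the black vertical line parts the stretches. Differences climb through the distal stretch, from -1.65 to 1.40 in NPCs minus ESCs and from -1.33 to 1.80 in MEFs minus ESCs; both comparisons share the ESC lines.

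The 2 comparisons share their ESC lines, so their likeness is not independent. MEFs minus NPCs called 0 of the 8 windows in limma, with 4 at an unadjusted p below 0.05, against 33.3% of all windows called. An unadjusted p below 0.05 was found in 25700 of all 43941 windows. On the deposited scale the 8 differences were 0.16 to 0.99, with a median of 0.55 against 0.35 over all windows. Their sign depends on the scale: relative to the median of all windows the last proximal and H1f4 windows were at -0.18 and -0.03, and by mean percentile 5 of the 8 windows were lower in MEFs, for example 54.1 in MEFs and 58.7 in NPCs in the last proximal window. The H1f5 window had the largest, at 0.99 (SE 0.24, adjusted p = 0.0028), just under the size. Without the F121-9 NPC line, 3 windows were called.

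In every called window the difference had the same sign on both parental copies, which were not tested one by one. In the last proximal window the 129 copy differed by -1.50 and the Cas copy by -1.49 in NPCs minus ESCs, and by -1.44 and -1.23 in MEFs minus ESCs. In the H1f4 window the 129 copy differed by -1.53 and the Cas copy by -1.76 in NPCs minus ESCs. In the H2bc1 window these differences were 1.18 and 1.62 in NPCs minus ESCs and 1.82 and 1.79 in MEFs minus ESCs, for the 129 and the Cas copy in that order.

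Allelic differences in the cluster were small. In limma, 0 of 8 windows were called in NPCs, MEFs or ESCs, against 4.71%, 12.9% and 25.2% of all windows. At an unadjusted p below 0.05 there were 0, 2 and 3 of the 8 windows. Of all 43941 windows, 8547 in NPCs, 14551 in MEFs and 20955 in ESCs had such a p. In ESCs the 129 copy was on average the earlier in all 8 windows, by 0.10 to 0.38, with a median of 0.17 against a median of absolute differences of 0.26 over all windows. Of these, 3 passed the adjusted p but not the size of 0.5.

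The largest ESC value was in the first proximal window, with H2bc13 to H4c11. Its allelic difference was 0.06 in F121, 0.57 in F121-6, 0.50 in F121-9, 0.32 in F123 and 0.43 in Cas129 ESCs, positive in 5 of 5 lines, with a mean of 0.38 (SE 0.09, adjusted p = 0.00555). In the same window it was 0.02 in F121-9 NPCs and 0.27 in Cas129 NPCs, and -0.12 to 0.17 in MEF embryos. The H2bc1 window was next in ESCs, at 0.37 (SE 0.10, adjusted p = 0.00938), and the largest in MEFs, at 0.55, 0.29, 0.25 and 0.51 in embryos 1 to 4, with a mean of 0.40 (SE 0.11, adjusted p = 0.0223). The 129 copy of that window was the earlier in 4 of 4 embryos and 5 of 5 ESC lines, but in NPCs the values were -0.30 in F121-9 and 0.16 in Cas129.

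In NPCs the largest value was in the H1f4 window, at 0.74 in F121-9 and 0.01 in Cas129 (mean 0.37, SE 0.25, adjusted p = 0.455). That window also varied most between ESC lines, at 0.10 in F121, 0.85 in F121-6, 0.19 in F121-9, -0.44 in F123 and 0.00 in Cas129. It lies at the edge of the 750 kb gap. Single profiles reached further than line means: the largest allelic difference of a profile was 1.70, in the H1f5 window of F121-6 on feeders. It did not repeat, since the other F121-6 profile on feeders was at -0.48 in that window. Of all profiles, the one with 1.70 had the lowest correlation of adjacent windows, at 0.980. It also had the largest median absolute allelic difference over autosomal windows, at 0.60.

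The allelic difference itself was called as changed in 0 of 8 windows, both for NPCs minus ESCs and for MEFs minus ESCs, against 16.1% and 27.4% of all windows. In limma 1 window of each had an unadjusted p below 0.05, as had 13030 and 17927 of all 43941 windows. In the cluster these were the H2bc1 window in NPCs minus ESCs, at -0.44 (SE 0.19, adjusted p = 0.139), and the first proximal window in MEFs minus ESCs, at -0.34 (SE 0.14, adjusted p = 0.0826).

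**Figure D4:**
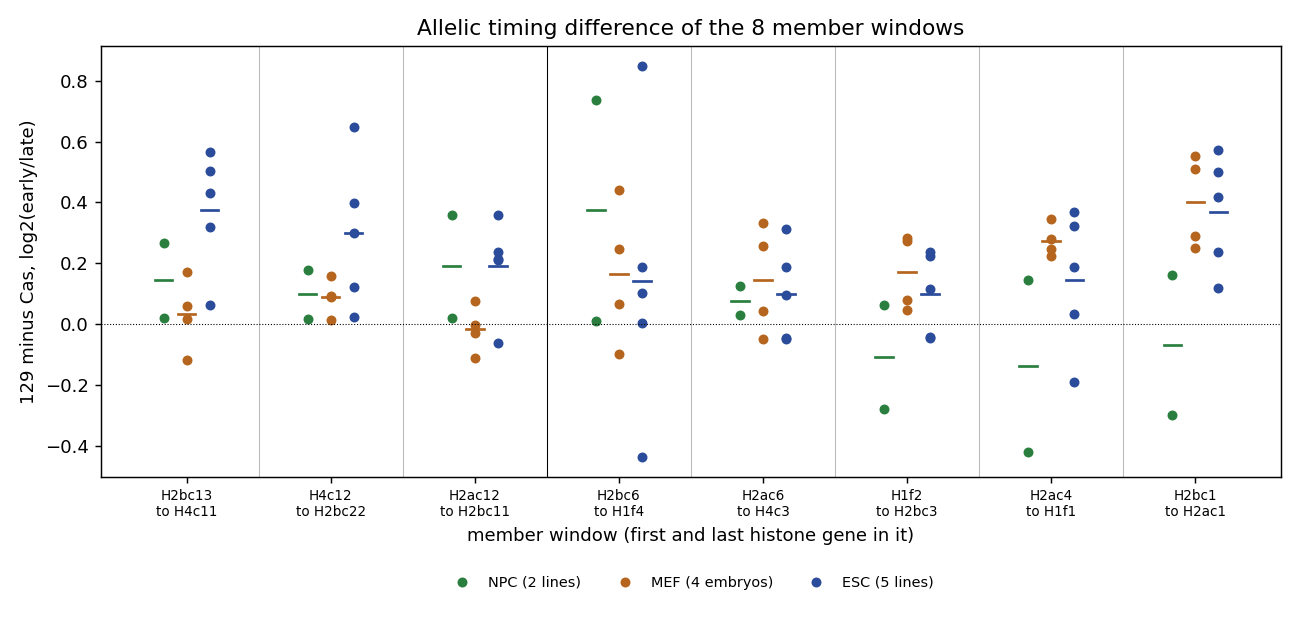
Allelic timing difference, 129 minus Cas on the log2 scale (vertical axis), in the 8 member windows (horizontal axis), with 1 point per line or embryo, bars for group means and the distal stretch right of the black line. All 4 MEF embryos and all 5 ESC lines lie above 0 in the H2bc1 to H2ac1 window, and the H2bc6 to H1f4 window spreads from -0.44 to 0.85 over ESC lines.

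Cross direction was compared as Cas129 against the 4 ESC lines with 129 first, in 2i. It called 0 of the 8 windows in limma, with 0 at an unadjusted p below 0.05, and 0% of all windows. The differences ran from -0.19 in the H1f2 window to 0.13 in the H1f5 window, with SEs of 0.28 to 0.43. A single Cas129 line gives this comparison little power.

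Culture was compared over 8 ESC profiles, 2 for each medium in both F121-6 and F121-9, in a fit that includes the line. Timing in 2i minus feeders called 1 of 8 windows, against 12.8% of all windows. It was the H2bc1 window, at -1.20 and -1.23 in F121-6 in 2i and at -0.97 and -0.43 in F121-9 in 2i, against -2.01 and -1.60 in F121-6 on feeders and -1.67 and -1.67 in F121-9 on feeders. The 2i profiles were all the earlier, by 0.78 (SE 0.21, adjusted p = 0.0308), but leaving out 7 of the 8 profiles in turn each took the adjusted p above 0.05, to as much as 0.107. The H1f4 window was later in 2i by an uncalled difference of -0.72 (SE 0.27, adjusted p = 0.0982). The allelic difference did not change detectably, with 0 of 8 windows called in limma, 0 at an unadjusted p below 0.05, and 0% of all windows called. An unadjusted p below 0.05 was found in 5104 of all 43941 windows.

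V6.5 ESCs, at 1 profile, had a timing of 0.36, 0.96 and 2.29 in the 3 proximal windows, above each of the 5 other ESC lines. In the H2bc1 window they stood at 0.47, against -0.63 in the highest of the 5 other ESC lines, and their distal stretch differed by 0.27 between its last and first windows, where the other ESC lines were negative. The alleles of V6.5 differed by at most 0.05 in the 8 windows, and by a median of 0.03 over all autosomal windows, against 0.33 to 0.60 in the 13 profiles of 129 and Cas ESCs.

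In XEN cells all 8 windows were above 0 on the deposited scale, where the 2 XEN profiles had autosomal medians of 0.004 and -0.03. The timing of XEN cells was 0.78 to 1.46 in the 8 windows, with a mean of 0.95 in the proximal stretch. The distal stretch averaged 0.99 in XEN cells, against -0.93 ± 0.44 in NPCs (n = 2), -0.43 ± 0.15 in MEFs (n = 4) and -0.85 ± 0.22 in ESCs (n = 5). Their values are on the MEF scale, and the mean percentile of the distal stretch was 61.8 in XEN cells, 47.0 in NPCs, 45.6 in MEFs and 48.1 in ESCs. In all 5 distal windows the C57B6 copy was later than the Cas copy in both XEN profiles, by -0.28 to -0.95. In the first proximal window it was earlier, by 0.56 and 0.42. With 1 line there is no test.

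The order of the groups was read on percentiles, since the deposited columns differ in level. In the last proximal window, from low to high, MEFs had a mean percentile of 54.1, NPCs 58.7, XEN cells 62.7 and ESCs 76.5. On the deposited scale MEFs, at 0.33, and NPCs, at 0.17, had the other order, and they overlapped. In the H2bc1 window, from high to low, XEN cells had a mean percentile of 67.1, V6.5 ESCs 62.5, NPCs 59.9, MEFs 58.0 and the other ESCs 45.2, with NPCs and MEFs overlapping. On the deposited scale MEFs, at 0.67, lay above NPCs, at 0.27, without overlap.

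The 8 measured windows between the stretches, in the Vmn1r array, were on average later than either stretch in all groups. Their mean was -2.39 ± 0.25 in NPCs (n = 2), -2.48 ± 0.10 in MEFs (n = 4), -1.56 in XEN cells and -1.49 ± 0.12 in ESCs (n = 5), at mean percentiles of 29.2, 22.2, 33.8 and 40.5. A window without histone genes inside the proximal stretch (chr13:21900001-21950000) was on average earlier than its 3 member windows in each of these groups. It averaged 0.51 in NPCs, 1.27 in MEFs, 1.57 in XEN cells and 2.03 in ESCs, and members lie on both sides of it.

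Histone genes at other loci were looked at as well. The Hist3 genes on chromosome 11, 3 genes in 2 windows, had a median of 1.74 in NPCs, 1.58 in MEFs, 3.35 in XEN cells and 1.39 in ESCs. Of their windows 0 were called between NPCs or MEFs and ESCs, but 2 windows are too few to read against all. Of all windows, 16.4% were called higher and 16.1% lower in NPCs minus ESCs, and 30.3% and 13.7% in MEFs minus ESCs. The Hist4 gene H4f16 on chromosome 6 was at -1.12 in NPCs, 1.81 in MEFs, 0.63 in XEN cells and 0.34 in ESCs, called lower in NPCs and higher in MEFs. It shares its window with the variant gene H2aj. The 10 Hist2 genes on chromosome 3 were not analysed here. Whether the main cluster differs from these loci was not tested.

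The replication-independent variants, which are made outside S phase too, were mostly early. The 12 genes had a median of 2.92 in NPCs, 3.33 in MEFs and 2.65 in ESCs, against -1.13, -0.14 and -0.06 for the 36 measured genes of the cluster. Of their 15 windows, 0 were called higher and 2 lower in NPCs minus ESCs, and 2 higher and 1 lower in MEFs minus ESCs. Of all windows, 16.4% were called higher and 16.1% lower in NPCs minus ESCs, and 30.3% and 13.7% in MEFs minus ESCs. The 14 measured regulators of histone transcripts, in 25 windows, had medians of 2.13 in NPCs, 2.20 in MEFs and 2.52 in ESCs, with 0 windows higher and 7 lower in NPCs minus ESCs and 0 higher and 8 lower in MEFs minus ESCs, where 16.1% and 13.7% of all windows were called lower. No test of the list was made, and a gene may span several of these windows. Slbp was early throughout, at 3.11 in NPCs, 3.39 in MEFs and 2.93 in ESCs. Npat averaged 0.75 in NPCs, 0.69 in MEFs and 2.27 in ESCs.

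Among 24260 autosomal windows off chromosome 13 with a protein-coding gene, those most like the mean of the 8 member windows over the 11 lines and embryos were windows of Kcnmb2, Apba2, Bnc2 (2 windows) and Hhip. Their mean absolute difference from it was 0.17 to 0.20. This measure ranks likeness of level and group pattern together, and the mean hides the opposed ends of the cluster.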

How the data were processed

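The table holds 54 columns, the 2 alleles of 27 profiles from 54 libraries. Each deposited value was read as a log ratio (taken as log2) of early over late S phase signal for 1 allele in a 50 kb window of mm10. No source used here states the base. Per the submitters' processing notes, Bowtie2, SAMtools and bedtools were used; allele assignment, smoothing and the choice of windows are not given in the sources used here. No counts were given, so depth is unknown and no counting interval is printed. By their medians the columns fall into 2 sets of different level, ESC with NPC (profile medians -0.83 to -0.56) and MEF with XEN (-0.12 to 0.04).

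Timing (mean of the alleles) and the allelic difference were computed per profile and averaged per line or embryo. limma 3.58.1 (R 4.3.3) was fitted over 43941 autosomal windows, with p-values adjusted over all of them, and tested on simulated data. The 11 lines and embryos entered 1 fit over cell types. Nothing in the labels says that repeat profiles were separate cultures, so their spread may be technical. Replicate numbers gave no pairing of constant sign. Over 55 pairs of groups, deviations of like-numbered profiles correlated at -0.40 to 0.30 in timing (median -0.01) and -0.07 to 0.04 in allelic difference. Whether some groups share a batch cannot be told from these values. No pair of profiles was identical. The alternatives were other scalings, subsets, blocks, size thresholds and eBayes settings.

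The members and gene lists were chosen with earlier results of these data known. Values per line are given for the window with most members in each stretch, the earliest and latest in ESCs, and those of largest allelic or timing difference. Coordinates are 1-based. Slopes along a stretch and the printed promoters were chosen after the values were seen.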

Additional observations from a re-analysis of the deposited data

How the results depend on the processing

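Directions of the 10 calls were the same under all alternatives run that refit them. Leaving out only MEF embryos could not change the NPC minus ESC differences, only their SEs and adjusted p. The same holds for NPC lines left out and the MEF minus ESC differences. The 5 NPC minus ESC calls also stayed past the threshold under the 21 alternatives that kept the minimum size, with differences of -1.91 to -1.31 in the H1f5 window and 1.24 to 1.63 in the H2bc1 window; leaving out a line gave 5 to 6 windows. For MEF minus ESC, 3 of the 4 calls held under the 20 alternatives that kept the minimum size, and median centring or quantile normalization exchanged the H2ac4 to H1f1 window for the first and second proximal windows, 5 calls in all. With no minimum size the timing counts were 7 for NPC minus ESC, 7 for MEF minus ESC and 3 for MEF minus NPC. For the allelic difference they were 3 in ESC and 1 in MEF. These counts are not to be read as an excess, since many windows pass without a minimum size. At an unadjusted p below 0.05 in limma, 24940 of all 43941 windows passed for NPC minus ESC, 33156 for MEF minus ESC and 25700 for MEF minus NPC. For the allelic difference 20955 passed in ESC and 14551 in MEF. The share of all windows at the adjusted p alone is not given here. At 2 times the minimum size the counts were 0 for NPC minus ESC, for MEF minus ESC and for culture timing. MEF minus NPC gave 1 window, that of H1f5, with female-labelled lines and embryos only, with the replicate block (1 window, adjusted p = 0.00134), with the line as a random block and without embryo 4, and 3 without the F121-9 NPC line (0 to 3 over lines left out). The single culture call gave 0 under quantile normalization and 0 to 1 when a profile was left out. The replicate block changed no other call. Setting aside the first Cas129 NPC profile, and pairing F121-9 and Cas129 by line, were added after seeing the data; each left 5 NPC minus ESC calls, the same windows. Allelic counts stayed at 0 under every alternative that kept the minimum size. Of 798 values of named windows, 776 stayed on their side of the threshold, 10 lost it, 12 gained it and 0 reversed.

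Limits: the depth is unknown, NPC results rest on 2 lines, adjacent windows share signal, 20 of the 56 genes have no value here, and MEF and ESC columns differ in level.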

Other observations

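A stretch just proximal to the histone genes had a larger mean allelic difference in NPCs than any of the 8 member windows. The window chr13:21450001-21500000 averaged 0.85 ± 0.10 in NPCs (SD, n = 2 lines), 0.21 ± 0.19 in MEFs (n = 4 embryos) and 0.24 ± 0.10 in ESCs (n = 5 lines), with the 129 copy the earlier in both NPC lines. It was singled out after its values were seen and was not tested. In XEN cells its C57B6 minus Cas difference was 0.71, of the opposite sign to that of the distal histone windows.

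The window chr13:22800001-22850000, the last before the long gap, had a timing of -3.03 ± 0.12 in NPCs (n = 2), -3.24 ± 0.29 in MEFs (n = 4), -2.04 in XEN cells and -1.11 ± 0.51 in ESCs (n = 5). Its SD over ESC lines was the widest of the 8 windows between the stretches. It too was chosen after its values were seen.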
